A study of Mus musculus with 6 samples.

Results

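Lysosomal protease and proton pump genes were followed in the mouse brain across age and between white and gray matter. The set held 22 listed genes for lysosomal enzymes, activators and membrane proteins, all of them found in the files, and every gene whose symbol begins with Atp6v, another 22, which gave 44 of the 19465 genes of the probe panel. By role they comprised 13 proteases, of which 10 are cysteine proteases, 3 glycosidases, the activator precursors Psap and Grn, 4 membrane proteins, 12 genes for V1 and 9 for V0 subunits of the vacuolar proton pump, and Atp6v1fnb, a neighbour gene that carries the prefix without being a subunit. The gene for the catalytic A subunit of V1 was not analysed here.

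Formalin-fixed, paraffin-embedded coronal brain sections from 6 untreated male C57BL/6J mice, 1 section a mouse, were profiled with the Visium probe assay, which counts unique molecular identifiers (UMIs) in spots on a grid. There were 2 mice at postnatal day 21 (P21), 2 adults of 12 to 15 weeks and 2 aged mice of 28 months, and no allele or agent differed between them. By the labels the aged mice came from the NIA and the adults from the Jackson Laboratory, while the P21 mice were bred from Jackson parents. Aged sections were also run on a later slide version, with tissue transfer and a changed probe design, so in aged vs. adult the age of the mice, their origin and the assay version cannot be told apart. With 2 sections an age, the spread between mice is poorly known, and the adult sections serve as the reference in both age comparisons.

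The lysosome is the acidic compartment in which proteins, glycans and lipids are broken down. Its acidity comes from the vacuolar proton pump (V-ATPase), a rotary enzyme whose cytosolic V1 sector hydrolyses ATP and whose membrane V0 sector passes protons, and several subunits have alternative isoforms that differ between cell types. Cathepsins are its main proteases. In the brain, microglia are rich in cathepsins, whereas neurons hold much of the proton pump because synaptic vesicles are filled by the gradient it makes.

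Promoters are shown for 4 members because a shared promoter word, CACGTG, is the core of the element through which TFEB and related factors act on lysosomal genes. RefSeq start sites on GRCm38.p6 were matched for 36 of the 44 members, with 42 promoters among them. In the 250 bases before the start site, read on both strands, CACGTG was present in 8 of these 42 promoters (19.0%) and in 6.02% of all 32851 promoters. The longer word GTCACGTG, which contains the first, was present in 5 of 42 (11.9%) and in 1.85% of all. Capitals mark CACGTG in the 4 sequences, which run 5′ to 3′ on the strand of the gene and end at the base before the start site. Ctsd lay at chr7:142387828-142388077 on the minus strand, Ctsa at chr2:164833523-164833772, Lamp1 at chr8:13158911-13159160 and Ctss at chr3:95526536-95526785 on the plus strand.
Ctsd: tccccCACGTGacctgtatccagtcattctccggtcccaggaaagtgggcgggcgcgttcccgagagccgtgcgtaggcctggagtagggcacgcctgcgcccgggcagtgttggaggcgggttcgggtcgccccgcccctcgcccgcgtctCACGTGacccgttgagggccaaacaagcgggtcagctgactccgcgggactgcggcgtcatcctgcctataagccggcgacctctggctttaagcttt
Ctsa: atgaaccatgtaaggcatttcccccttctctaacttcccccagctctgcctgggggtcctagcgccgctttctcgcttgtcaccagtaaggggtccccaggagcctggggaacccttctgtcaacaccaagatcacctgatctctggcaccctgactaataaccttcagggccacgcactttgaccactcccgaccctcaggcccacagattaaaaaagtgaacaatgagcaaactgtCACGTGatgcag
Lamp1: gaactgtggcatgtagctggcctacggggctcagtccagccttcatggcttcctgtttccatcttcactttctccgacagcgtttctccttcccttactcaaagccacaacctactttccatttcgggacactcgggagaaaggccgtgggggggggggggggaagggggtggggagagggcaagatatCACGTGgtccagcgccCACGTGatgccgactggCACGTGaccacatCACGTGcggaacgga
Ctss: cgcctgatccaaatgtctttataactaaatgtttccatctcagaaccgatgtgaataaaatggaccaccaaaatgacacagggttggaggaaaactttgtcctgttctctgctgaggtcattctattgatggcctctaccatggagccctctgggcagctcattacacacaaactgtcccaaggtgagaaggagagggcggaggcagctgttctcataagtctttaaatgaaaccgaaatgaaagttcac
Ctsd held the word 2 times, the Ctsa promoter shown 1 time and Lamp1 4 times. A further RefSeq promoter of Ctsa, at chr2:164832622-164832871 just before the annotated start of the gene, held it 0 times, and the letters were not in the window of Ctss. Among members tested in aged vs. adult white matter (given in full below), the word was present in 2 of the 11 genes with a promoter that were called higher (Ctsa and Ctsd), in 0 of 2 called lower and in 6 of 16 not called (Ctsf, Ctsl, Lamp1, Gaa, Lgmn and Atp6v0b).

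Spots with at least 250 genes and 500 UMIs were kept, 20336 in all, with 42422997 to 106783660 UMIs and a median of 12074.5 to 25535 UMIs per spot in a section. Spots were grouped by their expression with the members, further lysosomal genes (given below) and the cell type markers outside the region panels held out. The group led by the white matter panel, 340 to 492 spots in a section, formed the white zone. The oligodendrocyte markers are in that panel and were not held out, so their levels by zone are not independent of the zones. Striatum (STR), thalamus (TH), hypothalamus (HY), cortex (CTX) and hippocampus (HP) together formed the gray zone of 2007 to 2735 spots. The make-up of this zone differed between sections. HY had 727 and 640 spots at P21, 368 and 443 in adult and 629 and 881 in aged sections. TH had 666 and 413 spots in the aged sections. The part of this make-up in the gray values and in the differences between the zones was not tested. Of the white spots, 102 of 340 and 129 of 354 at P21 had only white neighbours. The counts were 145 of 370 and 174 of 404 in adult and 272 of 492 and 212 of 419 in aged sections. The part of border spots in the white values was not tested. The summed level of 6 oligodendrocyte genes, in CPM after TMM scaling, was 38680 to 87980 in white and 5185 to 19360 in gray zones. Median UMIs per spot were close in both zones at P21 and in adults, but were 11261.5 and 13567 in white against 21031 and 27582.5 in gray matter of the aged sections. The part of this depth difference in the results was not tested. Sections on the same slide version shared 2607 to 3363 spot barcodes, which name grid positions, and sections on different versions shared 0.

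UMIs were summed per section and zone and tested with edgeR, and a gene was called at a Benjamini-Hochberg adjusted p under 0.05 over all genes tested and a fold change over 1.5. Levels are CPM and cannot be compared between genes, since the number of probes per gene was not given. In sums over spots, fewer cells of a type and less RNA per cell cannot be told apart. The difference between the white and the gray log2 change was tested as a zone-by-age term with the section as a block, so that a gene-wise factor common to both zones of a section drops out of it. A factor of the assay or of depth that differs between the zones does not drop out. This fit was scaled over all 12 zone sums and the age fits within each zone. In aged vs. adult its terms therefore lay 0.224 to 0.242 below the white minus the gray log2 change printed here (36 members, median offset -0.238), and in P21 vs. adult within 0.033 of it. The terms were also computed with scaling within each zone, an alternative chosen after seeing the data, which leaves 0.015 or less of that offset in aged vs. adult, and members whose call differs are named. CPM were scaled over the 12 sums before the filters, so ratios of CPM differ from fitted changes, which the calls use. In aged vs. adult white matter this can cross the fold threshold. Mean Atp6v0e was 182.0 CPM in adult and 260.0 CPM in aged sections, under 1.5-fold, and its fitted fold was over 1.5. Mean Atp6v1d was 359.6 and 228.0 CPM, past 1.5-fold, and its fitted fold was under it.

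In aged vs. adult white matter, 36 members were tested, and 13 were called higher and 3 lower. Over all 11115 genes tested there, 12.1% were called higher and 15.5% lower. The members that rose were 6 of 12 proteases tested, 3 of 4 membrane proteins, Hexa, Grn and 2 V0 subunits, and those that fell were 3 of 8 V1 subunits tested. The median log2 change was 0.43 over the members and -0.06 over all genes tested. It was 0.70 over the proteases and -0.56 over the V1 subunits.

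**Figure D1:**
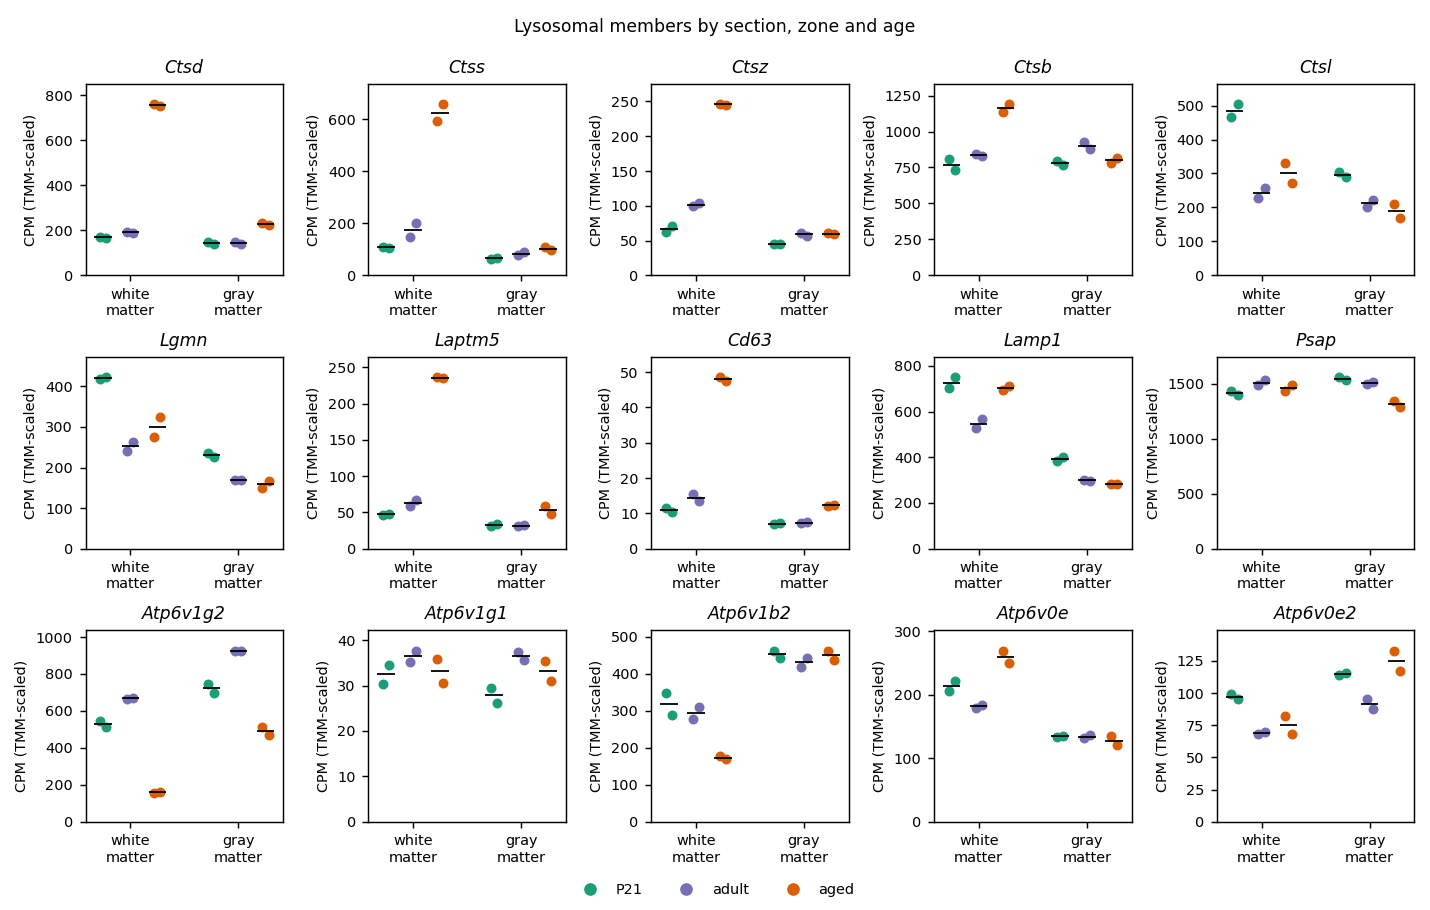
TMM-scaled CPM (linear axis from 0) of 15 members in each section, by zone and age; points are sections (n = 2 per age) and lines are means. Ctsd, Ctss, Ctsz, Laptm5 and Cd63 of aged white matter stand above all other sums, and Atp6v1g2 and Atp6v1b2 of aged white matter stand below them.

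Ctsd, the main aspartic protease of the lysosome (chr7:142375911-142388038, GRCm38), had the largest rise in white matter. It measured 192.8 and 189.2 CPM in adult and 761.3 and 754.5 CPM in aged white matter, and 148.6 and 137.8 against 231.6 and 224.3 CPM in gray matter. Both aged sections stood above both adult ones in each zone, with no overlap. The log2 fold change was 2.08 ± 0.08 (SE; edgeR adjusted p = 2.41e-13), or 4.22-fold, in white and 0.66 ± 0.07 (edgeR adjusted p = 1.14e-04), or 1.58-fold, in gray matter. The zone-by-age term was 1.18 ± 0.07 (SE; edgeR adjusted p = 1.02e-11), and 1.42 ± 0.07 with scaling within each zone, so that the rise was larger in white matter.

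Ctss, a cysteine protease that in brain is made mainly by microglia (chr3:95526786-95556403), followed the same order. White matter held 149.2 and 201.3 CPM in adult and 592.1 and 657.5 CPM in aged sections, a 3.80-fold rise (log2 1.93 ± 0.11, SE; edgeR adjusted p = 3.53e-11). In gray matter it measured 79.31 and 88.29 CPM in adult and 107.9 and 97.45 CPM in aged sections, and its log2 change of 0.28 ± 0.08 was under the fold threshold. Its zone-by-age term, 1.42 ± 0.09 (SE; edgeR adjusted p = 5.50e-11), was the largest of the 37 members tested.

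Ctsz, a carboxypeptidase of the same family, rose from 99.66 and 103.5 to 246.1 and 245.5 CPM in white matter (log2 1.36 ± 0.09; edgeR adjusted p = 1.18e-10). In gray matter it stood at 60.76 and 57.02 CPM in adult and at 60.73 and 59.38 CPM in aged sections, and those values overlapped. Ctsh, an aminopeptidase, rose from 25.64 and 36.39 to 88.42 and 91.86 CPM in white matter, 3.11-fold, and Ctsc, which activates granule proteases, from 11.36 and 14.13 to 32.56 and 32.85 CPM, 2.74-fold. Neither was called in gray matter, where the log2 changes were 0.18 ± 0.11 and 0.31 ± 0.14. The zone-by-age terms of all 3 were called, at 1.11 ± 0.08 for Ctsz, 1.23 ± 0.14 for Ctsh and 0.92 ± 0.20 for Ctsc.

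Ctsa, a carboxypeptidase that also protects other lysosomal enzymes, rose 1.77-fold in white matter, from 171.0 and 172.5 to 283.9 and 288.7 CPM. Its zone-by-age term of 0.53 ± 0.07 was under the fold threshold and was called, at 0.765 ± 0.075, with scaling within each zone. Ctsb, one of the most widely made cysteine cathepsins, measured 846.1 and 832.5 CPM in adult and 1139 and 1190 CPM in aged white matter, and 924.7 and 877.2 against 779.7 and 817.6 CPM in gray matter. Its groups did not overlap in either zone and lay in opposite directions, with log2 changes of 0.56 ± 0.09 (edgeR adjusted p = 1.44e-05) and -0.19 ± 0.06 (edgeR adjusted p = 0.0364), each under the fold threshold. Its zone-by-age term was 0.51 ± 0.07 and not called with scaling over all 12 sums, and was called with scaling within each zone (0.75), with DESeq2 or plain library sizes (0.67 and 0.68) and with zones drawn otherwise (0.71 and 0.89).

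The other proteases moved less in aged white matter. Ctsl, Ctso, Tpp1 and Lgmn, the last 2 a tripeptidyl peptidase and an asparaginyl endopeptidase, had log2 changes of 0.35 to 0.50 in white matter, with adjusted p from 8.14e-05 to 0.00326 by edgeR and folds under 1.5. Ctsf had a log2 change of 0.12 ± 0.10. Ctsk was below the detection filter there, with 7.285 and 4.061 CPM in adult and 3.352 and 4.258 CPM in aged white matter. All 12 proteases tested, without Ctsk, thus had a log2 change above 0 in white matter, against 7 of 13, with Ctsk, in gray matter. These sets are unlike, since Ctsk, left out by the filter in white matter, had a fitted log2 change of -0.494 there. The medians over all genes tested were -0.061 and -0.073. In gray matter Ctsd was the only protease called.

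Of the glycosidases, Hexa, the alpha chain of the hexosaminidase that clears gangliosides, rose in both zones. It went from 54.78 and 57.66 to 170.6 and 137.2 CPM in white matter (2.91-fold) and from 46.06 and 47.20 to 86.16 and 66.07 CPM in gray matter (1.62-fold), and the aged sections lay above the adult ones in each zone. Without aged replicate 1 its gray change was 0.49 on the log2 scale and was not called, and without aged replicate 2 its zone-by-age term of 0.61 ± 0.08 became 0.58 and was not called. Gaa, which degrades glycogen, went the other way in white matter, from 308.4 and 389.8 to 232.1 and 234.5 CPM, a change of -0.49 ± 0.11 that was under the fold threshold. Gray Gaa was 416.6 and 468.5 CPM in adult and 472.1 and 456.9 CPM in aged sections, and its zone-by-age term of -0.78 ± 0.10 (edgeR adjusted p = 5.14e-07) was called, but not the term of -0.54 ± 0.10 with scaling within each zone. Gusb, a glucuronidase, had changes of 0.53 ± 0.11 in white and -0.23 ± 0.07 in gray matter, each under the fold threshold, and a term of 0.52 ± 0.10 that was called, at 0.76, with scaling within each zone.

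Grn and Psap, which are both cut into small active proteins, did not follow each other. Grn, the precursor of the granulins, rose 2.01-fold in white matter, from 61.48 and 74.56 to 132.3 and 124.4 CPM, and was 50.84 and 53.76 against 57.85 and 56.43 CPM in gray matter. Its zone-by-age term was 0.66 ± 0.09 (edgeR adjusted p = 1.50e-06), and 0.56, under the fold threshold, without adult replicate 1. Psap, the precursor of the saposins, measured 1488 and 1532 CPM in adult and 1435 and 1488 CPM in aged white matter, where the values of the ages met. It was 1499 and 1518 CPM in adult and 1348 and 1291 CPM in aged gray matter, a change of -0.20 ± 0.06. Its zone-by-age term was 0.01 ± 0.07, and 0.25 ± 0.07 with scaling within each zone, neither past the fold threshold.

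Among the membrane proteins, Laptm5, a transmembrane protein of lysosomes in blood-derived and microglial cells, rose from 59.01 and 67.25 to 236.2 and 235.0 CPM in white matter (3.98-fold; edgeR adjusted p = 1.57e-12). In gray matter it went from 30.65 and 32.95 to 58.48 and 47.58 CPM (1.65-fold; edgeR adjusted p = 4.16e-04), and without aged replicate 1 this change was 0.57 on the log2 scale and was not called. Cd63, a tetraspanin of late endosomes, rose from 15.44 and 13.48 to 48.52 and 47.60 CPM in white and from 7.185 and 7.463 to 12.19 and 12.41 CPM in gray matter, 3.53-fold and 1.67-fold. The zone-by-age terms of both were called, 1.04 ± 0.10 for Laptm5 and 0.84 ± 0.17 for Cd63.

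Lamp1 and Lamp2, the most abundant glycoproteins of the lysosomal membrane, changed less. Lamp2 rose 1.68-fold in white matter, from 165.8 and 162.8 to 255.2 and 264.5 CPM, and stood at 109.6 and 103.0 against 111.9 and 118.4 CPM in gray matter. Lamp1 measured 527.4 and 565.3 CPM in adult and 696.2 and 711.2 CPM in aged white matter, a change of 0.46 ± 0.08 that was under the fold threshold. Gray Lamp1 was 302.4 and 298.0 against 282.8 and 282.4 CPM.

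Of the 15 proton pump subunit genes tested in aged vs. adult white matter, 2 were called higher and 3 lower, shares near the 12.1% and 15.5% over all genes, and 11 had a log2 change below 0, with a median of -0.18. The lower count was sensitive to the fold threshold. Atp6v1d (-0.567) and Atp6v1h (-0.561) were just under it. Both were called lower with zones from a score per spot (-0.684 and -0.783) and with spots inside a zone only (-0.768 and -0.66). Without P21 replicate 1 their changes were -0.608 and -0.602. The largest change was that of Atp6v1g2, a G subunit isoform of V1 that is made mainly by neurons (chr17:35233660-35238767). It measured 664.2 and 672.6 CPM in adult and 157.5 and 161.7 CPM in aged white matter, a log2 change of -1.98 ± 0.08 (edgeR adjusted p = 5.67e-13), which leaves 0.254 of the adult level. In gray matter it fell from 926.4 and 922.7 to 510.5 and 467.4 CPM (log2 change -0.93 ± 0.07; edgeR adjusted p = 3.77e-05), and the aged sections lay below the adult ones in both zones. Its zone-by-age term was -1.28 ± 0.08 (edgeR adjusted p = 1.02e-11).

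Its widely made sister isoform Atp6v1g1 showed no call. It was 35.11 and 37.69 CPM in adult and 35.75 and 30.57 CPM in aged white matter, and 37.32 and 35.53 against 35.33 and 31.00 CPM in gray matter. The values of the ages overlapped in white matter, and the log2 changes were -0.05 ± 0.13 and -0.15 ± 0.09. In the e subunit pair of V0, the widely made Atp6v0e rose from 179.9 and 184.0 to 269.6 and 250.5 CPM in white matter, 1.52-fold, and Atp6v0e2, which is richer in neurons, measured 68.48 and 70.01 against 82.51 and 68.44 CPM there. The call of Atp6v0e was at the fold threshold and was lost in 5 of the 6 fits that left out 1 section, every one but that without aged replicate 2, with log2 changes of 0.54 to 0.58. In gray matter Atp6v0e was 132.1 and 136.1 against 135.2 and 120.5 CPM, and Atp6v0e2 was 95.70 and 87.91 against 133.0 and 117.1 CPM, a change of 0.43 ± 0.08 under the fold threshold.

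In the B subunit pair of V1, Atp6v1b2, the isoform of brain, fell from 278.6 and 309.9 to 177.3 and 169.6 CPM in white matter (log2 change -0.67 ± 0.10; edgeR adjusted p = 7.89e-06) and was 419.5 and 442.3 against 461.7 and 437.7 CPM in gray matter. Atp6v1b1, the isoform of kidney and inner ear, had 14 UMIs over all 12 zone sums. Atp6v1e1, a stalk subunit, fell from 640.6 and 610.8 to 370.0 and 353.8 CPM in white matter (log2 change -0.70 ± 0.08) and was 787.4 and 787.7 against 766.8 and 740.5 CPM in gray matter. Atp6v0a2, an a subunit isoform found also on Golgi membranes, rose in both zones, from 35.99 and 35.09 to 62.56 and 56.42 CPM in white and from 32.16 and 31.05 to 53.52 and 47.80 CPM in gray matter, with a zone-by-age term of -0.07 ± 0.11, or 0.165 ± 0.105 with scaling within each zone. Its paralogue Atp6v0a1, which is rich in neurons, measured 218.7 and 201.7 against 166.9 and 182.2 CPM in white and 321.4 and 306.4 against 370.9 and 436.0 CPM in gray matter, opposite directions with a called zone-by-age term of -0.765 ± 0.075 that was not called, at -0.53, with scaling within each zone.

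**Figure D2:**
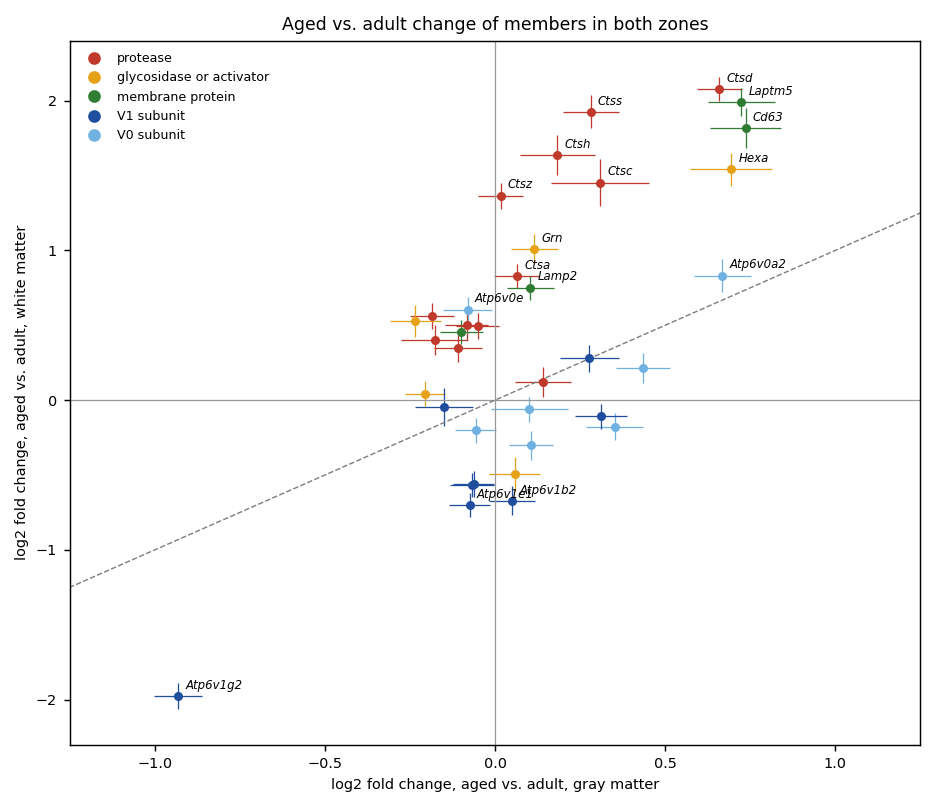
Log2 fold change in aged vs. adult of the 36 members tested in both zones, gray matter on the x axis and white matter on the y axis; bars are SE, colours are roles, the dashed line marks equal change and members called in either zone are named. All membrane proteins and all proteases but Ctsf lie above the line and most proton pump subunits below it.

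In aged vs. adult gray matter, 5 of 37 members tested were called higher (Ctsd, Hexa, Cd63, Laptm5 and Atp6v0a2) and 1 lower (Atp6v1g2). Over all 11302 genes tested, 4.19% were called higher and 4.27% lower. With plain library sizes in place of TMM, the share of higher among all calls in gray matter moved from 49.5% to 69.2%, and the members called were again 5 higher and 1 lower. The median log2 change was 0.06 over the members and -0.07 over all genes tested. Since slide version coincides with age, an aged vs. adult change in either zone cannot be told apart from a difference between the slide versions. The same holds for a difference between the zones, where an effect of the slide version is unlike in white and gray matter.

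By the zone-by-age term of aged vs. adult, 9 of 37 members changed more to the high side in white than in gray matter (Ctss, Ctsh, Ctsd, Ctsz, Laptm5, Ctsc, Cd63, Grn and Hexa) and 9 more to the low side (Atp6v1g2, Atp6v1b2, Atp6v1e1, Gaa, Atp6v0a1, Atp6v1h, Atp6v1d, Atp6v1c1 and Atp6v0c). Over all 11334 genes tested, 4.58% were called high and 19.6% low, and the median term was -0.23. Both counts depended on the scaling. With scaling within each zone the median term over all genes was 0.01, the share of high calls among all genes called was 48.6% in place of 19.0%, and 15 members were high and 3 low. The high ones were then the same 9 with Ctsa, Ctsb, Ctso, Gusb, Lamp2 and Atp6v0e, and the low ones Atp6v1g2 (-1.04), Atp6v1b2 (-0.72) and Atp6v1e1 (-0.625). With plain library sizes the median term over all genes was -0.06, the share of high calls among all genes called moved from 19.0% to 39.0%, and 13 members were high and 5 low. DESeq2 gave the same 13 and 5. Under both, Atp6v1h, Atp6v1d, Atp6v1c1 and Atp6v0c were no longer past the fold threshold, with terms of -0.58 to -0.48, while the other 5 low members and all 9 high ones were called. Without aged replicate 1 the term of Atp6v0c was -0.51 and not called. Of the 15 subunit genes, 14 had a term below 0 with TMM over all 12 sums, 12 with plain library sizes or DESeq2 and 11 with TMM within each zone, with medians of -0.65, -0.48, -0.49 and -0.41.

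**Figure D3:**
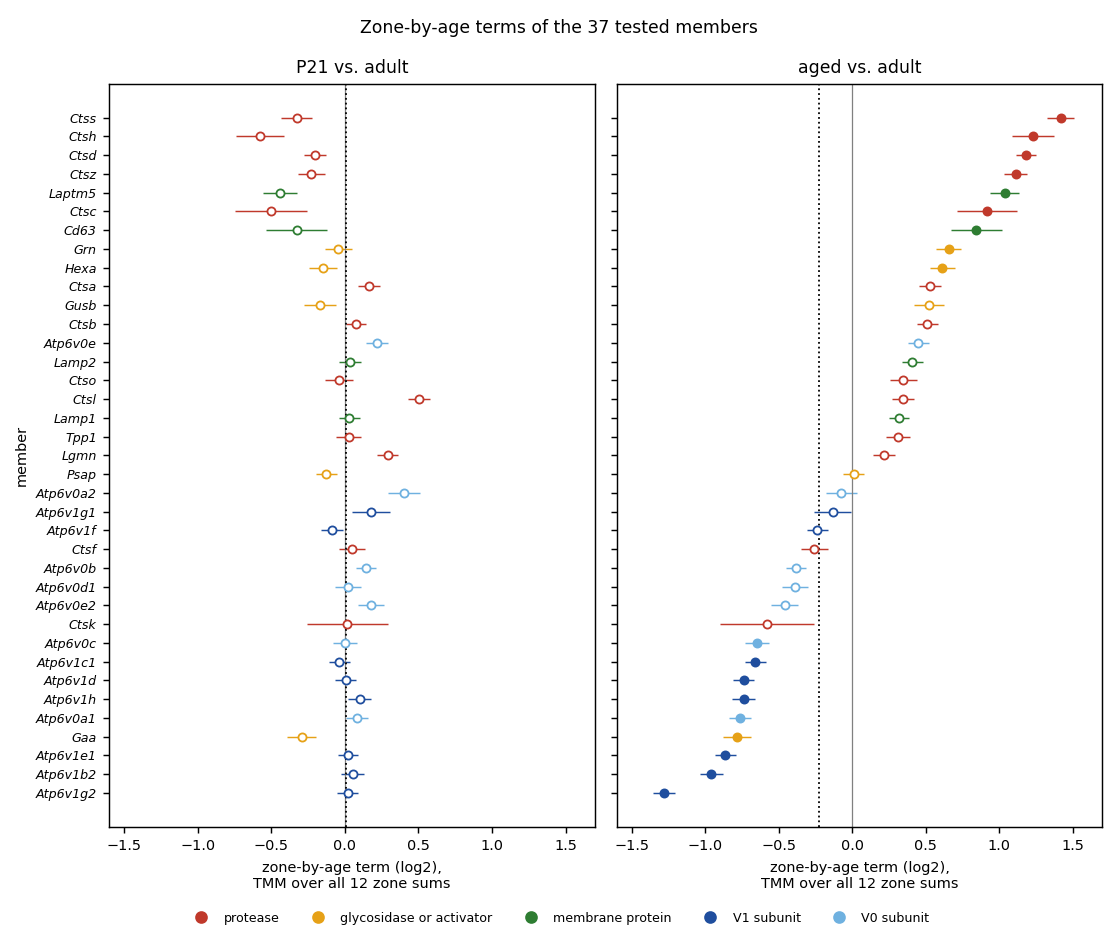
Zone-by-age terms (log2 scale, fitted with TMM over all 12 zone sums) of the 37 members tested, P21 vs. adult on the left and aged vs. adult on the right; bars are SE, filled points are called, colours are roles and the dotted line is the median of all genes. At P21 no point is filled, and in aged vs. adult 9 points are filled on each side; with TMM within each zone 15 would be filled on the high and 3 on the low side.

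Markers of several cell types moved with these changes. The summed level of 10 homeostatic microglia genes was 387.8 and 440.5 CPM in adult and 615.7 and 677.5 CPM in aged white matter, 1.56 times the adult mean, and 222.4 and 231.8 against 204.6 and 201.8 CPM in gray matter. Of 9 tested in white matter, 5 rose and 0 fell, with log2 changes from -0.026 ± 0.095 (P2ry12) to 1.194 ± 0.106 (Csf1r). In gray matter P2ry12 (-0.631 ± 0.075) and P2ry13 (-0.811 ± 0.108) were called lower, and the others tested were not called. The gray sum thus does not describe its single genes. The 10 reactive microglia genes summed to 311.8 and 328.9 against 1008 and 989.8 CPM in white matter, 3.12 times, and all 6 tested rose, among them Trem2 and Tyrobp. The 7 border macrophage genes summed to 13.84 and 13.97 against 25.22 and 25.40 CPM, and none of them was at 0 in all sections. The 7 astrocyte genes summed to 1.59 times the adult mean, with Gfap and Sox9 called, and the 4 T cell genes to 2.185 and 2.599 against 11.81 and 22.97 CPM.

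Most neuronal markers moved the other way in white matter. The 8 neuron genes summed to 5704 and 5343 CPM in adult and 2379 and 2257 CPM in aged white matter, 0.420 times, and to 9157 and 8854 against 8017 and 7650 CPM in gray matter, 0.870 times. In white matter 5 of 8 fell and Gad1 rose. In gray matter, by contrast, Gad1 (0.93 ± 0.10) and Syt1 (0.86 ± 0.16) were called higher and Stmn2 alone (-0.78 ± 0.07) lower, so the gray sum does not describe its single genes. Oligodendrocyte genes summed to 38680 and 40290 against 41470 and 41760 CPM in white matter, with 0 of 6 called, and to 0.637 times the adult mean in gray matter, where 5 of 6 fell. These genes were not held out of the grouping that drew the zones, so their changes by zone are not independent of it. The part of these shifts in the changes of the members was not tested. The folds of Ctsd (4.22), Laptm5 (3.98), Ctss (3.80) and Cd63 (3.53) exceeded the 1.56 of the homeostatic microglia sum and were of the order of the 3.12 of the reactive microglia sum. The fold of Atp6v1g2, 0.254, was below the 0.420 of the neuron sum, whereas those of Atp6v1e1 (0.616) and Atp6v1b2 (0.627) were above it. These member folds are fitted changes, whereas those of the sums are ratios of mean CPM. The reactive sum holds Cd9, which oligodendrocytes also make. Its tested genes had white log2 changes from 0.78 ± 0.10 (Axl) to 2.64 ± 0.11 (Trem2).

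White and gray matter also differed within each age. At P21, 8 of 37 members were called higher in white matter (Lamp1, Lgmn, Ctso, Ctss, Ctsl, Lamp2, Atp6v0e and Cd63) and 1 lower (Gaa), against 9.72% and 7.42% of all genes tested. In adults 9 of 36 were called higher (Ctsh, Ctss, Laptm5, Cd63, Lamp1, Ctso, Ctsc, Ctsz and Lamp2) and 1 lower (Atp6v0a1), against 10.3% and 7.56%. In aged sections 17 of 37 were called higher and 12 lower, against 14.4% and 32.4%. The aged background is itself shifted, with a median log2 ratio of -0.288 over all genes, compared with -0.063 in adults and -0.045 at P21. With plain library sizes the aged median was -0.106, the share of higher among all calls moved from 30.8% to 43.2% in aged and from 56.7% to 46.6% in P21 sections, and 18 members were higher and 10 lower in aged sections. Atp6v0b and Atp6v0d1 were the subunits whose aged calls were lost in that setting, at -0.43 and -0.54, and Atp6v0d1 was also lost without aged replicate 1 (-0.52). At P21 the call of Cd63 was lost without P21 replicate 1 (0.54) and that of Gaa without P21 replicate 2 (-0.47).

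Lamp1 had similar ratios at P21 and in adults. Its log2 ratio of white over gray matter was 0.88 ± 0.05 at P21, 0.85 ± 0.05 in adult and 1.17 ± 0.05 in aged sections, and it was called at each age. Ctss had ratios of 0.72 ± 0.08, 1.05 ± 0.07 and 2.46 ± 0.06, and Ctsd of 0.21 ± 0.05, 0.41 ± 0.05 and 1.59 ± 0.05, which was called in aged sections only. Of the 15 subunits tested, 12 had a ratio below 0 at P21 and 13 in adult and aged sections, with medians of -0.32, -0.41 and -1.05. The subunits called lower numbered 0 at P21, 1 in adults and 11 in aged sections, and Atp6v0e was above 0 throughout, at 0.65 ± 0.05, 0.43 ± 0.05 and 0.88 ± 0.05. The adult call of Atp6v0a1, at -0.59 ± 0.05, was just past the fold threshold and was lost with plain library sizes (-0.58) and in 4 of the 6 fits that left out 1 section (-0.58 to -0.56), those without P21 replicate 1 or 2, adult replicate 2 and aged replicate 1.

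In P21 vs. adult white matter, 3 of 37 members were called higher (Ctsl, Ctsk and Lgmn) and 2 lower (Ctss and Ctsz). Ctsk passed the detection filter there only through the P21 sections, where it is high. Over all 11156 genes tested, 4.95% were called higher and 3.69% lower. Both counts of members lay near these shares. The 5 are cysteine proteases that changed in both directions, and the calls of Ctsk, Ctss and Ctsz depended on the setting, as given below. The median log2 change was -0.002 over the members and -0.012 over all genes tested. With plain library sizes the share of higher among all calls moved from 57.3% to 46.4%.

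Ctsl, an endopeptidase made in most cells, measured 465.8 and 504.0 CPM at P21 and 227.6 and 258.1 CPM in adult white matter, 2.0-fold (log2 1.001 ± 0.10; edgeR adjusted p = 1.68e-07). Lgmn, which cleaves after asparagine and matures other cathepsins, was 417.7 and 422.3 against 241.6 and 262.3 CPM, 1.67-fold (edgeR adjusted p = 3.50e-06). Both P21 sections stood above both adult ones for each gene. Gray matter held 303.4 and 290.6 against 202.5 and 220.8 CPM of Ctsl and 235.0 and 226.8 against 170.2 and 168.9 CPM of Lgmn, and these log2 changes of 0.48 ± 0.10 and 0.44 ± 0.07 were under the fold threshold.

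Ctss and Ctsz were low at P21 and rose with each age in white matter. Ctss measured 109.0 and 105.5 CPM at P21 against 149.2 and 201.3 CPM in adults (log2 change -0.70 ± 0.12; edgeR adjusted p = 1.59e-04), and without adult replicate 2 the change was -0.49 and under the fold threshold. Ctsz was 63.04 and 70.68 against 99.66 and 103.5 CPM (log2 change -0.61 ± 0.09), and without P21 replicate 1 the change was -0.56 and under the threshold. In gray matter both were also lower at P21, with changes of -0.37 ± 0.08 and -0.40 ± 0.07 that were under the fold threshold. Homeostatic microglia genes summed to 370.2 and 391.1 CPM at P21 and 387.8 and 440.5 CPM in adult white matter, 0.919 times, and reactive microglia genes to 380.5 and 419.2 against 311.8 and 328.9 CPM. Of the 6 reactive genes tested, Cd9 alone rose (0.87 ± 0.09), a gene that oligodendrocytes also make, and Trem2 (-0.62 ± 0.14) and Tyrobp (-0.62 ± 0.14) fell, while the oligodendrocyte sum was 2.08 times the adult one. The part of these shifts was not tested.

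Ctsk, the collagen-degrading cathepsin best known from osteoclasts, was low at all ages. In adults it did not pass the detection filter in either zone. It was thus tested in P21 vs. adult white and gray matter only because it passed at P21, and these calls are not independent of that. It was 9.672 and 12.29 CPM at P21 and 7.285 and 4.061 CPM in adult white matter, and 9.778 and 8.490 against 5.710 and 4.288 CPM in gray matter, where it was the only member of 37 called higher and 0 were called lower, against 3.41% and 2.0% of all genes. The gray call was not tested without P21 replicate 1, because the gene then fell below the detection filter. The white call was lost without P21 replicate 2 (log2 change 0.75) or adult replicate 2 (0.54), with zones from a score per spot (0.78), with spots inside a zone only (0.79) and with DESeq2 (0.93; DESeq2 adjusted p = 0.139). The P21 and adult values did not overlap in either zone, but this too is not independent of the filter that the gene passed at P21.

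The zone-by-age term of P21 vs. adult was called for 0 of 37 members by edgeR, against 1.11% high and 0.914% low of all genes. At an adjusted p under 0.05 with no fold threshold, 5 members passed, Ctsl (0.51 ± 0.07), Lgmn (0.29 ± 0.07) and Atp6v0a2 (0.40 ± 0.11) on the high side and Ctsh (-0.57 ± 0.16) and Laptm5 (-0.44 ± 0.12) on the low side. With plain library sizes Ctsh was called at -0.64, and the share of high calls among all genes called moved from 54.8% to 35.4%. Ctsh was also called without P21 replicate 1 (-0.69) or adult replicate 1 (-0.81), and Ctsl without P21 replicate 1 (0.59). For the proton pump, 0 of 15 subunits were called in either zone at P21 vs. adult. Over all genes, 4.95% were called higher and 3.69% lower in white matter, and 3.41% and 2.0% in gray matter, so few calls would be found among 15 genes. All 7 V0 subunits tested had a log2 change above 0 in each zone, with medians of 0.38 in white and 0.13 in gray matter, and 6 of 8 V1 subunits in white and 7 of 8 in gray matter had one below 0. Several of these signs rest on nearly equal means of P21 and adult sections. Gray Atp6v0e was 134.8 and 134.1 CPM, gray Atp6v0a2 31.74 and 31.6 CPM and white Atp6v1e1 622.4 and 625.7 CPM. A difference between the sectors was not tested.

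The gray zone was then divided into its regions. In aged vs. adult, the members called higher numbered 4 in CTX, 8 in HP, 7 in TH, 5 in HY and 6 in STR, and 1 was called lower in each. The shares of all genes called higher were 6.41%, 5.72%, 6.84%, 6.48% and 8.17% in the same order, and the shares called lower 4.14%, 6.01%, 6.97%, 5.34% and 6.17%. Ctsd, Hexa, Cd63 and Atp6v0a2 were called higher and Atp6v1g2 lower in all 5 regions. In CTX, Cd63 passed the detection filter only through the aged sections, where it is high, so its call there is not independent of the filter. The log2 changes of Ctsd ran from 0.68 ± 0.09 in CTX to 0.86 ± 0.08 in TH, and those of Atp6v1g2 from -0.78 ± 0.10 in HP to -1.246 ± 0.09 in STR. Neither reached its size in white matter in any region.

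Laptm5 was called in HP, TH, HY and STR and was highest in STR, at 1.247 ± 0.13. Ctss was called in TH (0.65 ± 0.09) and STR (0.65 ± 0.10), where it went from 87.00 and 93.04 to 134.6 and 136.5 CPM, and in CTX it stood at 65.28 and 74.68 against 81.05 and 72.42 CPM with overlapping values. HP alone called Ctsc (0.91 ± 0.22) and Atp6v0a1 (0.68 ± 0.09), and HP and TH called Atp6v0e2 (0.70 ± 0.10 and 0.60 ± 0.09). Differences between regions were not tested.

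**Figure D4:**
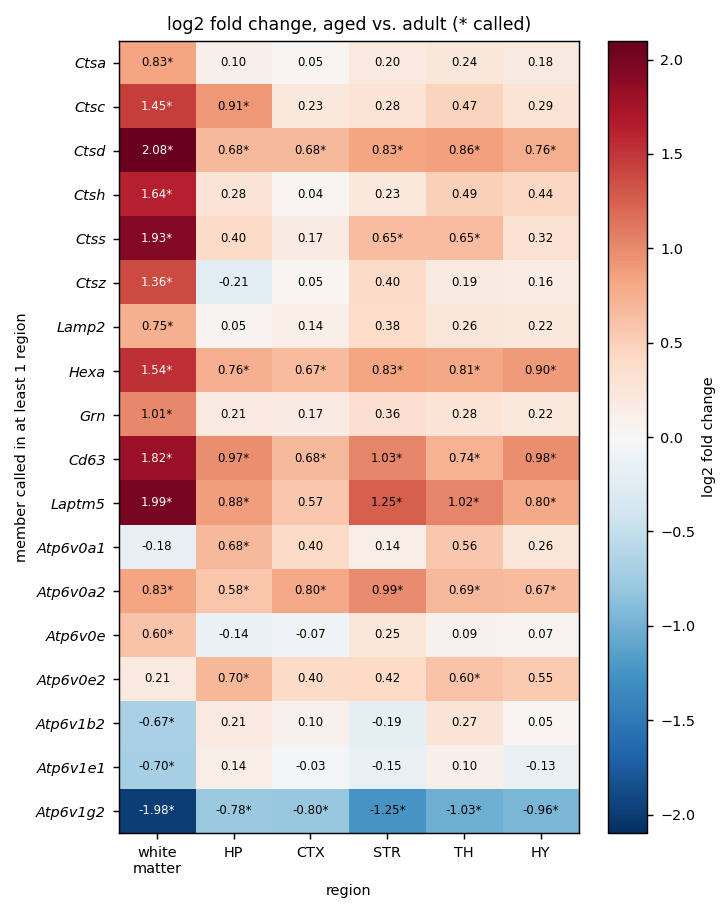
Log2 fold change in aged vs. adult (colour and printed value) of the 18 members called in white matter or in at least 1 of the 5 gray regions; asterisks mark calls. Ctsd, Hexa, Cd63 and Atp6v0a2 are raised and Atp6v1g2 is lowered in all 6 columns, and most other calls are in white matter. Cd63 passed the detection filter in CTX only through the aged sections.

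In P21 vs. adult, CTX called Ctsk (1.22 ± 0.16) and Ctsh (0.60 ± 0.15) higher, 2 members against 3.51% of all genes higher and 1.98% lower. Ctsk in CTX measured 18.65 and 19.17 CPM at P21 and 7.529 and 8.665 CPM in adults, and the P21 values of CTX were the highest of all regions. HP called Ctsh higher (0.70 ± 0.16), against 5.21% of all genes higher and 1.59% lower. STR called Lgmn (0.78 ± 0.12), Atp6v0e2 (0.69 ± 0.13) and Ctsl (0.65 ± 0.10) higher, against 2.86% and 1.17%. HY called Ctss lower (-0.64 ± 0.09), against 1.92% higher and 1.96% lower, and TH called no member in either direction, against 4.33% higher and 2.74% lower of all genes by edgeR.

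Gray spots were next sorted by their distance from the nearest white spot, in steps of the grid. In aged sections Ctsd was 765.7 and 756.9 CPM in white spots, 328.3 and 310.4 CPM at step 1, 247.6 and 223.7 CPM at step 2 and 220.2 and 207.4 CPM at step 3. From step 3 on it showed no further fall, with 227.5 and 222.7 CPM at step 6 and beyond. Adult sections went from 193.2 and 189.7 CPM in white spots to 154.6 and 140.4 CPM at step 1. Levels at step 1 were thus 0.429 and 0.410 of the white level in aged and 0.80 and 0.74 of it in adult sections.

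Ctss at step 1 was 0.352 and 0.285 of its white level in aged, 0.634 and 0.536 in adult and 0.676 and 0.746 in P21 sections. Lamp1 was 0.538 and 0.532 of it in aged, 0.645 and 0.588 in adult and 0.619 and 0.555 in P21 sections. Atp6v1g2 rose outward, to 2.74 and 2.85 times the white level at step 1 in aged sections and to 1.36 and 1.39 times in adult ones. The neuron sum in aged sections went from 2393 and 2264 CPM in white spots to 5909 and 6152 CPM at step 1, and that in adult sections from 5718 and 5356 to 7967 and 7791 CPM. Border spots can hold tissue of both zones, and these profiles are given without a test.

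**Figure D5:**
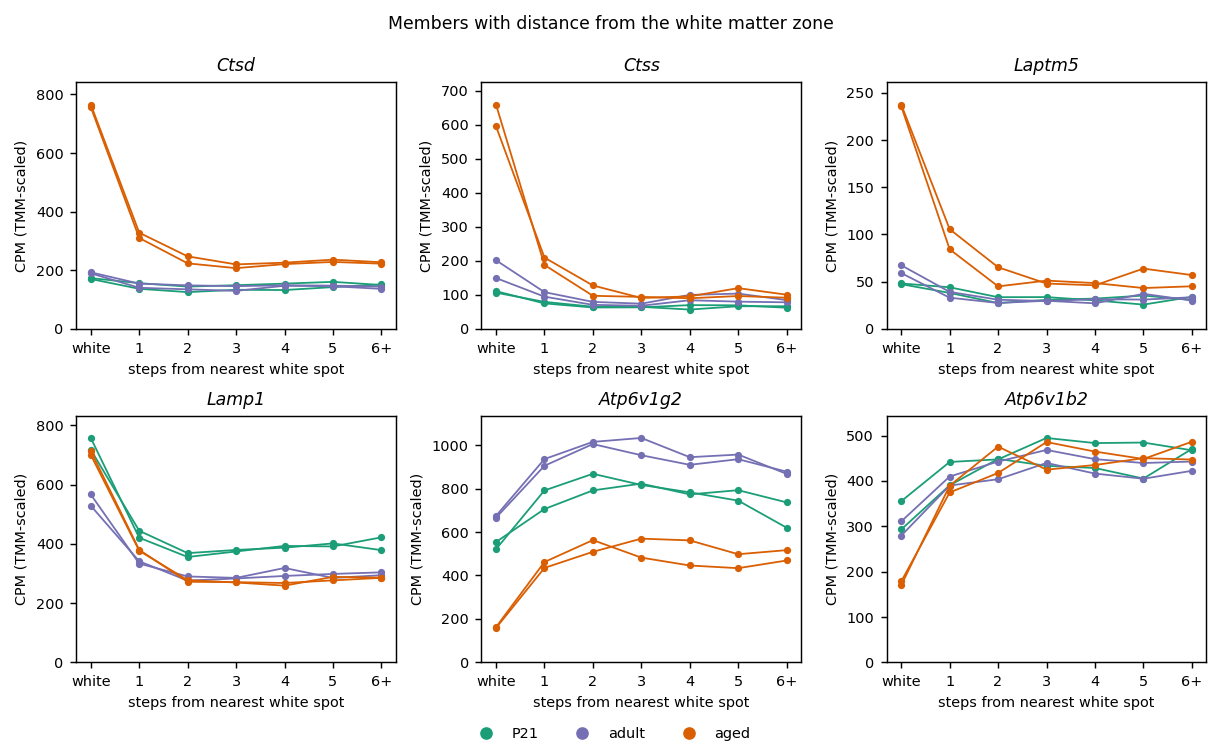
TMM-scaled CPM (linear axes from 0) of 6 members in white spots and in gray spots 1 to 6 or more grid steps from the nearest white spot; each line is a section, coloured by age. The aged lines of Ctsd, Ctss and Laptm5 drop between white spots and step 2, and those of Atp6v1g2 and Atp6v1b2 climb.

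The deposited tables also give Moran's I, a score of how strongly a gene's level is shared by neighbouring spots, which does not use the zones. Ctss scored 0.055 and 0.014 at P21, 0.091 and 0.091 in adult and 0.432 and 0.477 in aged sections, against medians over all genes of 0.011 to 0.030. Ctsd scored 0.040 and 0.018 in adult and 0.343 and 0.360 in aged sections, and Laptm5 0.041 and 0.027 against 0.267 and 0.277. Ranked among the genes of its own section, Ctsd stood at percentiles 73.7 and 58.5 in adult and 95 and 94.3 in aged sections. Gaa scored highest of the members in 5 of 6 sections, with 0.287 to 0.641 over all 6, while Atp6v1g2 led in adult replicate 1 at 0.344, and Atp6v1g1 was low in every section, 0.005 to 0.021. Depth and assay version differ between sections, so values of different sections are set side by side without a test.

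Beyond the members, 55 further lysosomal genes were followed. Of the 51 tested in aged vs. adult white matter, 14 rose and 2 fell, with a median log2 change of 0.30, against 12.1% higher, 15.5% lower and a median of -0.06 over all genes tested. Among the 23 hydrolases and activators tested 7 rose and 0 fell. Of 10 membrane proteins 4 rose, among them the macrophage sialomucin Cd68 from 30.74 and 27.45 to 116.7 and 131.7 CPM (4.54-fold), and 1, the sialic acid exporter Slc17a5, fell. Tcirg1, the a3 isoform of the V0 sector, which lacks the Atp6v prefix, rose from 13.40 and 13.97 to 34.47 and 36.96 CPM (2.78-fold), and Dmxl2, an assembly factor of the pump at synapses, fell from 196.7 and 191.8 to 118.4 and 119.8 CPM.

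Tfeb, the transcription factor of the lysosomal program, rose from 39.63 and 38.01 to 60.81 and 63.27 CPM in white matter (log2 change 0.77 ± 0.11; edgeR adjusted p = 5.40e-06), and its zone-by-age term of 0.33 ± 0.12 was under the fold threshold. White Tfeb at P21 was 59.43 and 65.31 CPM, near its aged level. Of its relatives in adult and aged white matter, Tfe3 was 22.0 and 23.07 against 21.39 and 17.49 CPM. Mitf was 20.54 and 21.77 against 30.0 and 29.05 CPM, and Tfec was at most 1.521 CPM. Among the cathepsin inhibitors, the abundant cystatin Cst3 had a white change of 0.56 ± 0.10 under the fold threshold and a called zone-by-age term of 0.72 ± 0.08. Cst7, a cystatin of reactive microglia, was below the detection filter, at 0.8742 and 2.112 CPM in adult and 31.28 and 33.31 CPM in aged white matter. In gray matter 2 of the 52 further genes tested rose (Mcoln1 and Cstb) and 1 fell (Slc17a5), and in P21 vs. adult white matter 3 of 52 rose and 0 fell, shares near those over all genes (4.19% and 4.27%, and 4.95% and 3.69%).

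The 7 members that were tested in no comparison were Atp6v0a4, Atp6v0d2, Atp6v1b1, Atp6v1c2, Atp6v1e2, Atp6v1fnb and Atp6v1g3, all isoforms known from kidney, bone, testis or epithelia apart from Atp6v1fnb. Their zone sums held 14 to 1421 UMIs in all. Atp6v0d2, the d subunit of osteoclasts and some macrophages, had 1 and 0 UMIs in adult white matter and 18 and 21 UMIs in aged white matter, and 13 and 29 UMIs in the larger aged gray zone. At these counts no fold is given. With the detection filter removed, 42 members were tested in gray matter and 9 were called higher in aged vs. adult, in place of 5, with Atp6v0d2, Atp6v1e2, Atp6v1fnb and Atp6v1g3 added.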

How the data were processed

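Coronal sections of 6 mouse brains were profiled by FFPE Visium. The authors counted probe reads with Space Ranger against mm10 and, per the file headers, used version 2.0.0 at P21 and in adults and version 3.1.1 in aged mice. They deposited UMI counts per gene and spot, not normalized and not pooled (the submitters' processing notes name Space Ranger 2.1.0 and Seurat 5.1.0). The deposited Moran's I score of each gene came from the same software. Grid positions gave distances.

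The study's thresholds on spots, 250 genes and 500 UMIs, were kept. Values were standardized within each section and grouped (3000 variable genes, 10 principal components, 20 neighbours, Leiden resolution 0.3, scanpy 1.11.5), which gave 14 groups named from marker panels. The members, the further lysosomal genes and the cell markers outside these panels, 148 genes in all, were kept out. The oligodendrocyte markers are in the white matter panel and were not kept out. UMIs were summed per section and zone, 12 sums, or per region. Sums were TMM-scaled and tested with edgeR 4.0.16 (quasi-likelihood, R 4.3.3), each zone or region with its 6 sections and age as the factor, and zone contrasts on all 12 sums, scaled together, with the section as a block. Genes had to pass filterByExpr and be detected in over 10% of spots. DESeq2 1.42.0, plain library sizes, TMM within each zone, other filters, other zones and leaving out sections were alternatives. In simulated data for aged vs. adult white matter (11338 genes), 99% of changes of 2.0-fold and 76% of changes of 1.5-fold had an adjusted p under 0.05 by edgeR. The fold threshold was not applied there and only a small part of the genes was changed. These shares therefore do not give the power of the calls reported here.

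Values in every section were given for members with the 4 largest changes in each age comparison, the 4 smallest zone-by-age p in each contrast, and a fixed set of proteases, membrane proteins and subunit isoform pairs, with others added after their values were seen. The members and lists were chosen with earlier results of these data known. Promoters came from RefSeq (GRCm38.p6) and gene coordinates from GENCODE vM21. The 2 replicates of an age were separate mice by their labels, and same-numbered sections of different ages were not paired.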

Additional observations from a re-analysis of the deposited data

Results flagged for a closer look

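For 18 members the log2 change in aged vs. adult differed between white and gray matter by the zone-by-age term (edgeR, adjusted p under 0.05 and a fold over 1.5), which compares both zones of the same sections. The proteases Ctss, Ctsh, Ctsd, Ctsz and Ctsc had terms of 1.42, 1.23, 1.18, 1.11 and 0.92 on the log2 scale. The membrane proteins Laptm5 and Cd63 had terms of 1.04 and 0.84, the granulin precursor Grn 0.66 and the hexosaminidase chain Hexa 0.61. On the low side were the V1 subunits Atp6v1g2 (-1.28), Atp6v1b2 (-0.96), Atp6v1e1 (-0.86), Atp6v1h (-0.74), Atp6v1d (-0.74) and Atp6v1c1 (-0.66), the V0 subunits Atp6v0a1 (-0.76) and Atp6v0c (-0.65), and the glycosidase Gaa (-0.78). Over all genes tested, 4.58% were called high and 19.6% low and the median term was -0.23, so that the share of members on the low side, 9 of 37, lay near the background. Atp6v1h, Atp6v1d, Atp6v1c1 and Atp6v0c lost the call with plain library sizes, with DESeq2 and with TMM within each zone, and Gaa and Atp6v0a1 with TMM within each zone only. Atp6v0c also lost it without aged replicate 1. For Gaa, Atp6v0a1, Atp6v0c, Atp6v1b2 and Atp6v1c1 the change was below 0 in white and above 0 in gray matter. None of these gray changes was called, and of the white ones that of Atp6v1b2 alone. The gray values of the ages overlapped for Gaa and Atp6v1b2.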

How the results depend on the processing

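Counts of members called depended most on the fold threshold. At an adjusted p under 0.05 without it, they were 29 in place of 16 in aged and 16 in place of 5 in P21 vs. adult white matter, 14 in place of 6 and 16 in place of 1 in gray matter, 30 in place of 9 at P21 and 31 in place of 10 in adults for white vs. gray matter, and 33 in place of 18 (aged) and 5 in place of 0 (P21) for the zone-by-age term. With spots inside a zone only, the counts were 25 in aged and 3 in P21 vs. adult white matter, 17 for white vs. gray matter at P21 and 1 for the P21 zone-by-age term. With zones from a score per spot they were 2 in P21 vs. adult gray matter, 15 and 16 for white vs. gray matter at P21 and in adults, and 4 for the P21 zone-by-age term. Without the detection filter, 10 members were called in aged and 2 in P21 vs. adult gray matter, and with plain library sizes 1 in the P21 zone-by-age term. The cause of these shifts was not tested, beyond the looser threshold and the larger set tested.

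Leaving out 1 section gave 17 to 17 calls in aged and 3 to 6 in P21 vs. adult white matter, 4 to 6 and 0 to 1 in gray matter, 9 to 12, 9 to 11 and 28 to 29 for white vs. gray matter at P21, in adults and in aged sections, and 17 to 18 (aged) and 0 to 2 (P21) for the zone-by-age term. Scaling the zone fit within each zone, an alternative chosen after seeing the data, left the zone-by-age counts at 18 and 0, with 12 members in common with the main 18. Single values were followed under all alternatives for 20 members only, in the age comparisons by zone and the zone-by-age terms. Of 1544 such values, 1465 kept their side of the threshold, with 59 changes of sign that were all among values not called. A call was gained by 62, 35 of them without the fold threshold, and lost by 17. These counts leave out Atp6v1d, Atp6v1h, Atp6v1c1, Atp6v0c, Gaa, Atp6v0a1, Ctsa, Grn and Gusb, whose calls changed in settings given above. Same-numbered sections did not deviate together (r of -0.085 to -0.062 in white and -0.463 to 0.183 in gray matter), so the replicate numbers do not pair the sections. With the replicate number as a block the counts were 16, 5, 6 and 1, as without it. Depth limits the low members, 7 of which were tested in no comparison.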
